A study of Mus musculus with 13 samples.

Results

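The direct comparison of shSLY with shSLX1 round spermatids covers 6 of the 13 arrays of the series, chosen by their sample labels: 3 arrays of spermatids with reduced Sly and 3 arrays of spermatids with reduced Slx and Slxl1. Round spermatids are the haploid male germ cells that form after meiosis. The series measured their RNA on Illumina mouse BeadChip arrays, with 4 further arrays of wild type (WT) spermatids and 3 of spermatids carrying both transgenes (shSLX1shSLY). The shSLY males carried a transgene expressing a small hairpin RNA against Sly, and the shSLX1 males one against Slx and Slxl1, while WT males carried no transgene. All were young adult males of about 8 weeks on the strain background named MF1YRIII in the labels, so every group shared that background. Spermatids were separated from testis by elutriation or sedimentation, so an array describes a cell preparation and not 1 cell type free of others. The sources used here do not give the promoters of the transgenes. WT arrays are given last, as the level without a transgene.

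Sly is present in many copies on the long arm of the Y, and Slx and Slxl1 are its multicopy relatives on the X. After meiosis the X and Y chromosomes of a spermatid stay in a compact domain, the postmeiotic sex chromatin, where most of their genes are expressed at a low level. SLY protein is known as a repressor of X and Y genes in that domain and SLX/SLXL1 proteins as factors acting in the other direction, so the direct comparison sets the loss of one against the loss of the other.

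Values are background corrected, quantile normalized log2 intensities, and differences are shSLY minus shSLX1 on that log2 scale. Detection on 3 or more of the 13 arrays (detection p under 0.05) was required of a probe, which 20250 of 45281 met, and these stood for 14659 genes or unnamed probes, of which 355 were on the X, 16 on the Y and 10746 on autosomes. The arrays detected 17663 to 19057 probes in shSLY and 16432 to 17842 in shSLX1 spermatids. The arrays were put into 3 sets by clustering the signals of probes undetected on every array, whose median raw signal was low in one set and alike in the other two: shSLY 1 and 2 lay with WT 1 and 2 (53.4 to 56.1), shSLX1 1 and 2 with WT 3 and 4 (71.1 to 78.1), and shSLY 3 and shSLX1 3 with the 3 shSLX1shSLY arrays (71.7 to 78.1). Only the arrays numbered 3 hold both knockdowns in 1 set. The other shSLY and shSLX1 arrays lie in different sets, which only the WT arrays in both and the arrays numbered 3 link, and a fit blocked by set rests on those links. The difference of shSLY 3 from shSLX1 3 is given beside the main results. In bulk spermatid RNA, fewer cells of a type and less RNA per cell cannot be told apart.

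The targeted genes gave no check of the labels. Sly stood at 10.36, 10.05 and 10.68 in shSLY, against 9.19, 8.62 and 10.18 in shSLX1 and 9.82 to 10.32 in WT spermatids. The arrays labelled shSLY were thus not below WT at this probe, and the shSLY and shSLX1 arrays overlapped. Sly was 1.04 higher in shSLY than in shSLX1 spermatids (SE 0.30, limma, adjusted p = 0.0488), with 0.50 in the arrays numbered 3. That call was lost with the array set as a block, and also when any 1 array other than shSLX1 3 was left out, with differences of 0.68 to 1.46. Slx and Slxl1 had no probe under those names, and groups are called throughout by their labels.

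A gene was called where its fold exceeded 1.5 and limma's adjusted p was under 0.05. This gave 998 genes, 6.81% of those tested. Of these, 499 were higher and 499 lower in shSLY, 3.40% in each direction. The arrays of both groups did not overlap for 981 of the 998, against 21.3% of all genes tested (10.4% higher and 10.9% lower). In the arrays numbered 3, which were part of the fit, 995 of the 998 differed in the same direction and 715 by over 1.5-fold. Blocked by array set, the fit called 930 genes (6.34%), 409 higher (2.79%) and 521 lower (3.55%), of which 689 were among the 998. A fit to the 6 shSLY and shSLX1 arrays alone called 473 genes. With the replicate number as a block, those 6 arrays gave 956 calls (6.52%), 495 higher (3.38%) and 461 lower (3.14%), of which 799 were among the 998. The values do not tell number 1 from 2, so this pairing is uncertain. The count of 998 became 608 without shSLY 1 and 1552 without shSLY 3. Median scaling in place of quantile normalization gave 452 higher and 142 lower genes, with the median of all genes shifted by 0.18. The labels call the arrays biological replicates, and p-values measure the spread between these preparations.

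The arrays numbered 3 served as a pair that a fit without them had not used. Without both, 1706 genes were called, 11.6% of those tested. In shSLY 3 against shSLX1 3, 1371 of the 1706 (80.4%, exact 95% interval 78.4 to 82.2, counting error only) differed in the same direction, against 59.5% of all genes. The X genes called higher kept their direction in 131 of 134 cases and the Y genes in 12 of 12. Among autosomal genes the share was 354 of 515 called higher (68.7%) and 525 of 621 called lower (84.5%). X genes held their size too, with a median of 1.10 without the arrays numbered 3 and 1.05 in that pair, whereas the autosomal genes called higher had medians of 0.84 and 0.17. The scatter of both differences shows all tested X, Y and autosomal genes.

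**Figure D1:**
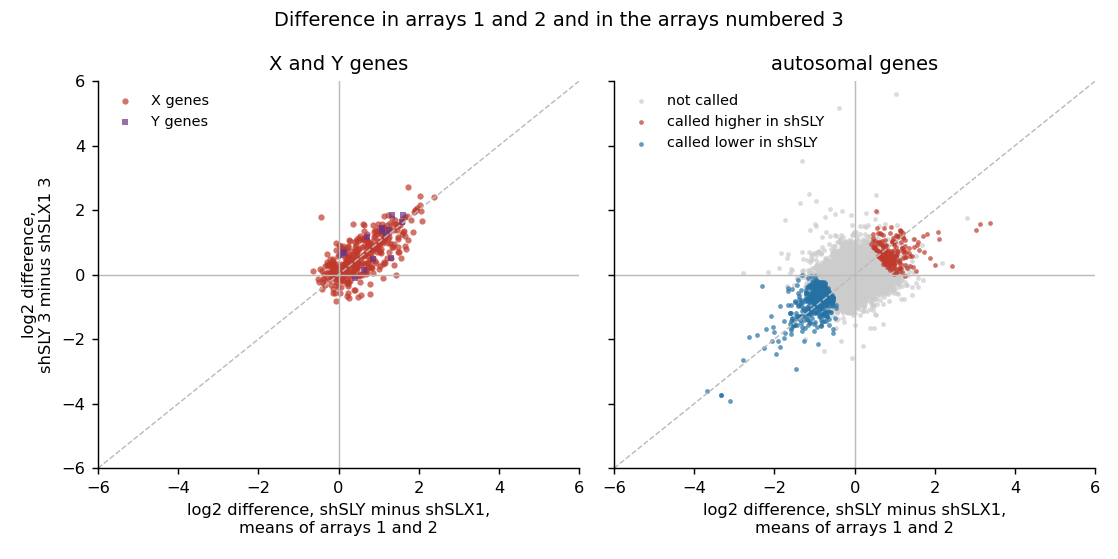
Each point is a tested gene on the X, the Y or an autosome, whether called or not. The horizontal axis gives its log2 difference, shSLY minus shSLX1, over the arrays numbered 1 and 2, and the vertical axis the same difference in the arrays numbered 3. Genes called without the arrays numbered 3 are not marked apart. Of those, 131 of 134 higher X genes and 12 of 12 higher Y genes lie above 0 on the vertical axis, against 354 of 515 higher autosomal genes.

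The X and Y chromosomes stood apart from the autosomes. On the X, 128 of 355 genes (36.1%) were called higher in shSLY than in shSLX1 spermatids and 0 lower. At an unadjusted p under 0.05 the X counts were 185 higher and 2 lower, and the Y counts 12 and 0. On the Y, 11 of 16 genes (68.8%) were called higher and 0 lower, and all 16 lay above 0. On autosomes 192 of 10746 genes (1.79%) were called higher and 403 (3.75%) lower. The median difference was 0.46 on the X and 1.10 on the Y, against -0.01 on autosomes, and in the arrays numbered 3 it was 0.48 and 1.21, against -0.02. The autosome with the highest share of higher genes was chromosome 14 (4.37%), and the one with the highest share of lower genes was chromosome 18 (6.07%), as the plot by chromosome shows. The autosomal count of higher genes depended on single arrays: it was 85 without shSLY 1, 101 without shSLY 2, 428 without shSLY 3, 106 without shSLX1 1, 117 without shSLX1 2 and 344 without shSLX1 3. The count of lower autosomal genes was 239 without shSLY 1.

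**Figure D2:**
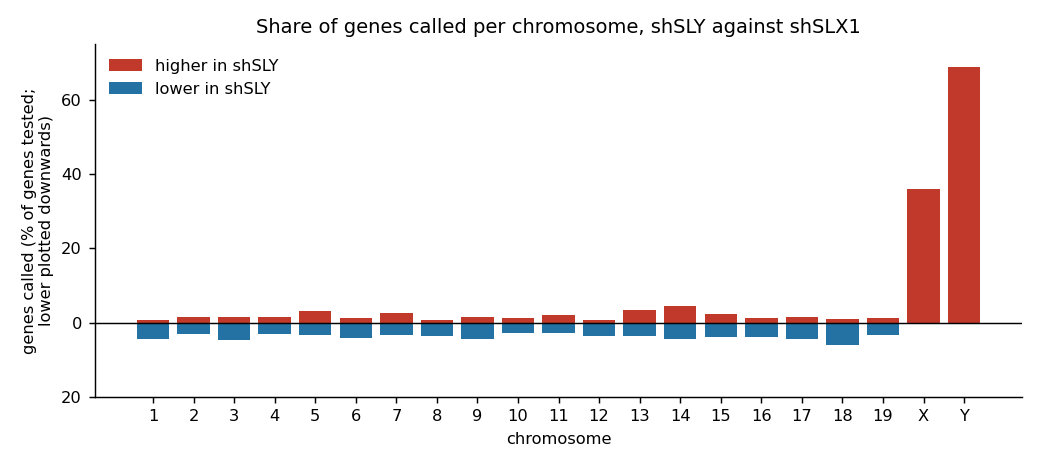
Share of the genes tested on each chromosome, in percent, that were called higher or lower in shSLY than in shSLX1 spermatids. The X (36.1%) and Y (68.8%) exceed every autosome in the share called higher, and neither holds a gene called lower.

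Each array was also summarised by its mean over X genes minus its mean over autosomal genes. This X level was -0.26, -0.31 and -0.23 on the shSLY arrays, against -0.75, -0.96 and -0.84 on the shSLX1 arrays and -0.76 to -0.84 on the WT arrays. All 3 shSLY arrays lay above all others of these groups, while shSLX1 and WT arrays overlapped. The shSLY mean of -0.26 ± 0.041 exceeded the shSLX1 mean of -0.85 ± 0.10 (SD, n = 3 each) by 0.58, or 1.5-fold (two-sided exact permutation p = 0.1, the smallest that 3 against 3 arrays can give). The difference was 0.61 in the arrays numbered 3, 0.57 without them and 0.57 when blocked by array set. The Y level was 2.86, 2.71 and 2.87 on the shSLY arrays, against 2.08, 1.67 and 1.81 on the shSLX1 arrays and 1.99 to 2.06 on the WT arrays. Here too the shSLY arrays lay above all others, and the difference from shSLX1 was 0.96, or 1.95-fold (exact p = 0.1), with 1.06 in the arrays numbered 3. Set against WT, the X level differed by 0.54 in shSLY (exact p = 0.0286, the smallest possible) and by -0.04 in shSLX1 spermatids (exact p = 0.486). For the Y these differences were 0.80 (exact p = 0.0286) and -0.17 (exact p = 0.229). Both use the same 4 WT arrays.

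**Figure D3:**
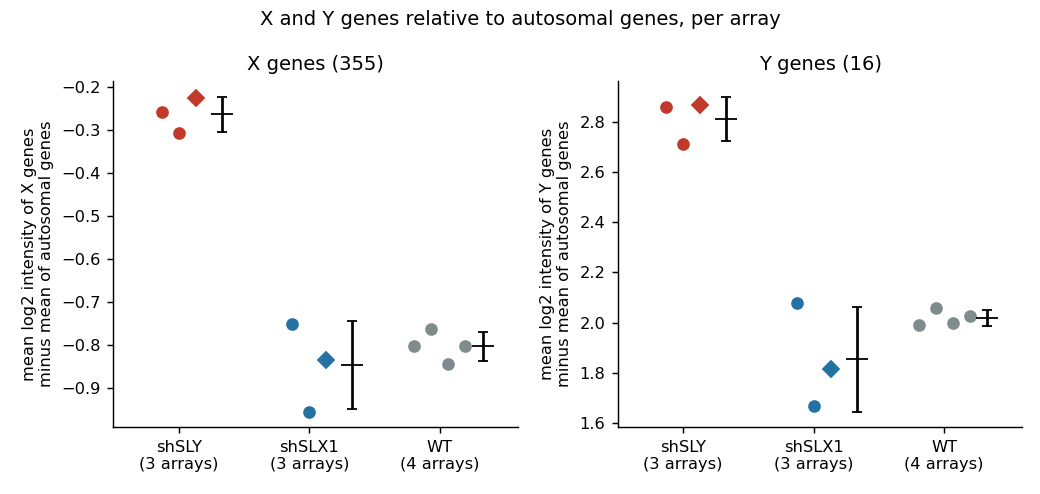
Mean log2 intensity of X genes and of Y genes minus that of autosomal genes, 1 point per array, for shSLY, shSLX1 and WT spermatids, with group means and SD. The shSLY arrays lie at -0.31 to -0.23 for the X and 2.71 to 2.87 for the Y, above all shSLX1 and WT arrays.

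The size of the X difference followed signal level. Among the 118 brightest X genes, 91 (77.1%) were called higher, with a median difference of 1.03 and 1.07 in the arrays numbered 3. The 118 X genes of middle intensity had 34 calls and a median of 0.50. Of the 119 dimmest, whose mean lay at 5.11 or below and thus near the background, 3 were called, with a median of 0.08.

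The Cypt genes, which encode cysteine-rich proteins of the perinuclear theca around the spermatid nucleus, lie on the X and on autosomes. Of 6 members with a tested probe, the 4 on the X were called higher and the 2 on autosomes were not called. The listed members Cypt7, Cypt8, Cypt9, Cypt10 and Cypt14 were not matched to a probe by name, so the autosomal members of the family are covered only in part. Cypt2 stood at 11.96, 11.77 and 11.72 in shSLY, against 10.31, 9.81 and 10.04 in shSLX1 spermatids, a difference of 1.76 (SE 0.17, adjusted p = 2.53e-05). Cypt15 stood at 9.45, 9.17 and 9.93 in shSLY, against 7.64, 6.85 and 7.97 in shSLX1 spermatids, a difference of 2.03 (SE 0.29, adjusted p = 0.000381). The arrays of both groups were fully apart for each of them, with 1.68 and 1.96 in the arrays numbered 3. Cypt1 and Cypt3 were higher by 1.15 and 1.06. Cypt4 on chromosome 9 stood at 13.58, 13.58 and 13.12 in shSLY, against 13.78, 13.50 and 13.27 in shSLX1 spermatids, and these values overlapped (-0.09, adjusted p = 0.809). Cypt12 on chromosome 3 differed by 0.47 (adjusted p = 0.0912). The promoters of the 4 X members and of Cypt4 are shown because they are alike in letters although the genes differ in location and in whether they were called. Each is 250 bases before to 50 after the gene start, 5′ to 3′, from RefSeq on build GRCm38.p6, all on the plus strand: Cypt2 chrX:105499522-105499821, Cypt15 chrX:39346016-39346315, Cypt1 chrX:16522619-16522918, Cypt3 chrX:153558343-153558642 and Cypt4 chr9:24624935-24625234. Capitals mark the longest run of letters that all 5 share.
Cypt2: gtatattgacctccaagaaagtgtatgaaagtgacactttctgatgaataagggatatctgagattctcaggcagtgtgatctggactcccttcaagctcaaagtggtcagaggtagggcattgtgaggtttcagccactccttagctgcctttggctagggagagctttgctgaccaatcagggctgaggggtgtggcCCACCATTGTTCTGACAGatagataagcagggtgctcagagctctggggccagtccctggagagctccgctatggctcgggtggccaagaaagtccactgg
Cypt15: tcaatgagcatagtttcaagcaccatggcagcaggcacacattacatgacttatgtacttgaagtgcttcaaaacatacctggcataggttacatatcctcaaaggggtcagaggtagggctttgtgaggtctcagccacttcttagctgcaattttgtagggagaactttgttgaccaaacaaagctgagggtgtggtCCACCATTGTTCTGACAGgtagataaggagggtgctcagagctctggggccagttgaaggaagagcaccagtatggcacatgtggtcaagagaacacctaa
Cypt1: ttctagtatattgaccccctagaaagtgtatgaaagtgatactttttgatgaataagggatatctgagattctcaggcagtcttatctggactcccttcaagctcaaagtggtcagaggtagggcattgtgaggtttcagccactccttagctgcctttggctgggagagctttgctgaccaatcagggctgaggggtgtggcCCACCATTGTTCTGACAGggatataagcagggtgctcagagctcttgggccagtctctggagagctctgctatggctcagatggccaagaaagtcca
Cypt3: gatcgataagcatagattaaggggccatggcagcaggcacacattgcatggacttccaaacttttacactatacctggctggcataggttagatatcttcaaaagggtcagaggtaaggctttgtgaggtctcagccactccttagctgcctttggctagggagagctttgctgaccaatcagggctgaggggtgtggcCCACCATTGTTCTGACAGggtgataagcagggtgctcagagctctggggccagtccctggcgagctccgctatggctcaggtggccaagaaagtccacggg
Cypt4: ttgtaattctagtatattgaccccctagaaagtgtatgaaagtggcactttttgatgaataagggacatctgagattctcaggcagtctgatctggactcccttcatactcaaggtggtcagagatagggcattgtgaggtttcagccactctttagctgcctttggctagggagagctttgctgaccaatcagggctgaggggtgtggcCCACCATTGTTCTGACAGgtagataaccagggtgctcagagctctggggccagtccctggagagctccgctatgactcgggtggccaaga
The run CCACCATTGTTCTGACAG has 18 letters and was searched on both strands. Of the 9044 tested genes with a promoter in the table, 5 held it (0.0553%), and these were the 5 genes shown. Cypt2, whose expression differed, and Cypt4, whose expression was not called, shared an unbroken run of 75 letters. A match of letters is a description and not a binding site.

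Other X genes of spermatids followed the same pattern. Of 26 tested genes on the list of X spermatid genes, 16 were called higher and 0 lower, and 25 lay above 0, with a median of 0.90 and 0.95 in the arrays numbered 3, against a median of 0.00 over all genes. Rhox11, a reproductive homeobox gene, stood at 9.22, 8.97 and 9.41 in shSLY, against 7.43, 6.68 and 6.96 in shSLX1 and 7.24 to 7.36 in WT spermatids. Every shSLY array lay above every shSLX1 and WT array, and the difference from shSLX1 was 2.18 (SE 0.19, adjusted p = 1.21e-05), with 2.44 in the arrays numbered 3. Actrt1, an actin-related protein of the spermatid head, stood at 11.42, 11.27 and 11.72 in shSLY, against 9.92, 9.35 and 9.90 in shSLX1 spermatids. It was 1.75 higher (SE 0.18, adjusted p = 3.97e-05), again without overlap. The homeobox gene Tgif2lx1 was higher by 1.5, Tcp11x2 by 1.05, Akap14, which encodes an anchoring protein for protein kinase A, by 1.14 and Tex13a by 1.21. Of the 7 X homeobox genes tested, Rhox11 and Tgif2lx1 were called and the other 5 were not. The median of this list was 0.66, but -0.12 in the arrays numbered 3 and 0.20 when blocked by array set. Tspan6, a tetraspanin, was higher by 1.96, the adaptor gene Sh3kbp1 by 1.90, Btg1c by 1.93, Yipf6, a Golgi membrane protein gene, by 1.68 and Fam122c by 1.63. The highest X difference was at the gene model Gm14594 (2.39, and 2.40 in the arrays numbered 3), named here after its value was seen. Unlike Rhox11, Gm14594 differed from WT on both sides, by 1.18 in shSLY and by -1.21 in shSLX1 spermatids. None of these X genes, Rhox11 to Fam122c, lost its call when 1 array was left out. Several X families were chosen after their values were seen and are given as description. All 4 Cldn34 claudin genes were called, with 1.03 to 1.52, as were both Samt genes (0.81 and 1.02) and both Dmrtc1 genes (0.94 and 1.27). Of the Ssxb genes 3 of 4 were called (0.45 to 0.83), of the Tex13 genes 2 of 3 (0.29 to 1.48) and of the X-linked H2A and H2B variants 3 of 6 (0.48 to 1.32). Pgk1, a glycolytic enzyme gene of the X chosen in the same way, stood at 7.70, 7.61 and 7.46 in shSLY, against 6.36, 5.80 and 6.20 in shSLX1 spermatids. Its testis counterpart Pgk2 on chromosome 17 differed by -0.12 (adjusted p = 0.685). The difference was thus 1.47 at Pgk1 (adjusted p = 0.000377), without overlap.

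**Figure D4:**
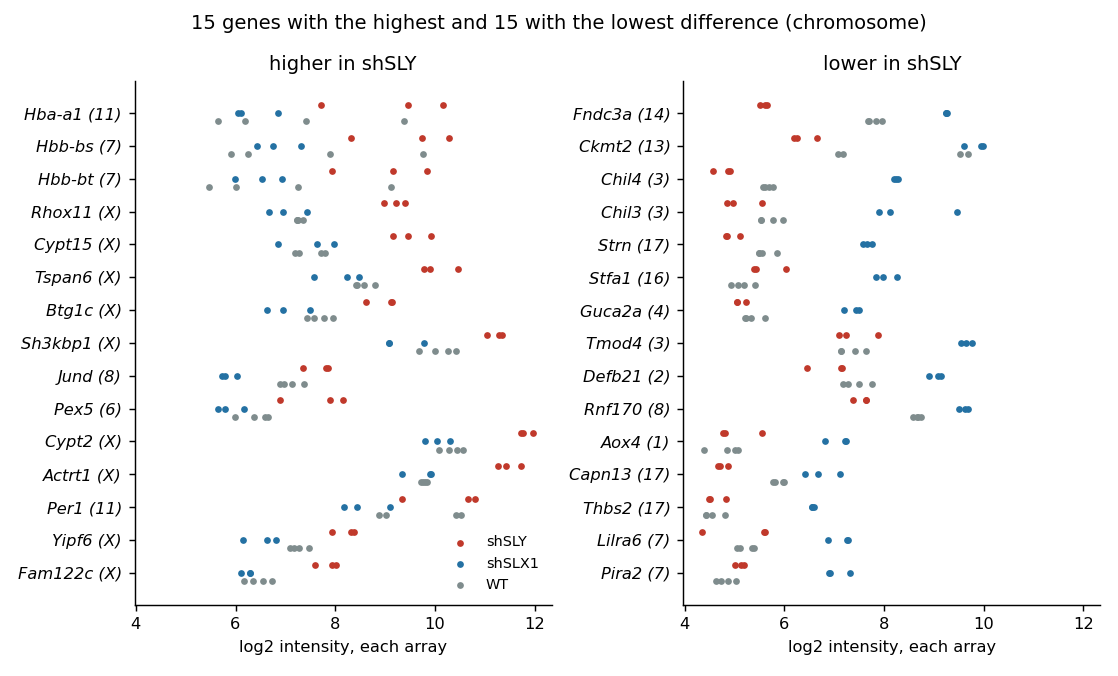
Log2 intensity on each shSLY, shSLX1 and WT array for the 15 genes with the highest and the 15 with the lowest difference among those called without overlap, leaving out gene models and clone names (Gm, Rik, LOC), 1 row per gene and 1 point per array, with the chromosome in brackets. No shSLY point overlaps the shSLX1 points of its gene, and the WT points lie with shSLX1 for Rhox11 and Actrt1, between both for Fndc3a and Rnf170, and in 2 pairs for Ckmt2 and Per1.

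Of 6 listed Y genes of germ cells 5 were called higher, and of 3 Y genes of all tissues 0 were called. Whether these lists differ was not tested. Ssty1, a multicopy spermatid gene of the spindlin family, stood at 12.998, 13.03 and 12.90 in shSLY, against 11.71, 11.16 and 11.28 in shSLX1 and 11.52 to 11.81 in WT spermatids. Its values did not overlap, and it was 1.59 higher (SE 0.16, adjusted p = 3.51e-05), with 1.62 in the arrays numbered 3. Ssty2 stood at 14.25, 14.21 and 13.92 in shSLY, against 13.32, 12.96 and 12.49 in shSLX1 spermatids, a difference of 1.20 (SE 0.19, adjusted p = 0.00118). Rbm31y, an RNA-binding motif gene, was higher by 1.21 and Zfy1, a zinc finger transcription factor gene, by 0.87, whereas a second kept probe of Zfy1 gave 0.16. Zfy2 did not pass the detection filter. Usp9y, Uty and Eif2s3y, which are expressed in many tissues, differed by 0.32, 0.30 and 0.24 and were not called, with 0 of them at an unadjusted p under 0.05. In the arrays numbered 3 they differed by 0.68, 0.69 and 0.62, and blocked by array set Usp9y differed by 0.58 (adjusted p = 0.0189), below the fold required. H2al2c, a histone variant gene, was the germ cell gene not called (0.23, and -0.11 in the arrays numbered 3), and Orly was not called either (0.47, adjusted p = 0.224). The 11 called Y genes include Gm multicopy models that share sequence with one another, so their probes are not independent measurements.

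Set beside the same WT arrays, the called sex-linked genes differed mainly on the shSLY side. The 128 X genes called higher had a median of 0.93 for shSLY minus WT and -0.13 for shSLX1 minus WT. For the 11 Y genes these medians were 1.02 and -0.27. The 192 autosomal genes called higher had 0.49 and -0.35, and the 403 called lower had -0.35 and 0.53. The comparisons share shSLY, shSLX1 and WT arrays, so these medians are a description of 1 set of values.

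Autosomal genes called higher included the Speer and replication-dependent histone H3 genes. The Speer genes are a multicopy family of glutamate-rich proteins of spermatids. Of 9 tested, 5 were called higher and 0 lower, with a median of 0.95, and 0.44 in the arrays numbered 3. Speer4e stood at 10.63, 10.16 and 10.004 in shSLY, against 9.29, 8.78 and 9.19 in shSLX1 spermatids, and was 1.18 higher (SE 0.23, adjusted p = 0.00500). WT arrays ran from 8.94 to 9.70 for it, with WT 1 and 2 above WT 3 and 4. Speer4a, higher by 0.95, also kept its call when any 1 array was left out. The other three did not: Speer6-ps1 lost its call without shSLY 1, shSLY 2, shSLX1 1 or shSLX1 2 (0.86 to 1.21), Speer4cos without shSLY 1, shSLX1 1 or shSLX1 2 (0.91 to 1.34), and Speer3 without any 1 array but shSLY 3, WT 1 or WT 4 (0.65 to 1.02). With the array set as a block, 3 Speer genes were called, and with the replicate number as a block Speer1 (0.79) and Speer4d (1.43) were called in addition. Of 8 H3 genes tested, 4 were called higher and 0 lower, with a median of 0.80, and 0.91 in the arrays numbered 3. H3c6 stood at 10.58, 10.65 and 10.78 in shSLY, against 9.67, 9.51 and 9.55 in shSLX1 spermatids, and was 1.10 higher (SE 0.14, adjusted p = 0.000149). H3c1, H3c7 and H3c4 were higher by 1.21, 1.11 and 1.10. H3 genes are near-identical in coding sequence, so which copy a probe measured is uncertain, and the 4 values may not be independent.

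Jund, an AP-1 transcription factor gene on chromosome 8, stood at 7.86, 7.81 and 7.36 in shSLY, against 5.78, 5.74 and 6.04 in shSLX1 and 6.89 to 7.37 in WT spermatids. It was 1.83 higher in shSLY than in shSLX1 spermatids (SE 0.19, adjusted p = 3.97e-05), with 1.32 in the arrays numbered 3. The WT arrays lay above shSLX1, and they overlapped shSLY, since WT 2 (7.37) lay slightly above shSLY 3 (7.36). It was 1 of 4 immediate early genes called higher of 18 tested, with 0 lower and a median of 0.46. The other three, Fosb, Zfp36l1 and Cebpb, each lost the call when certain single arrays were left out: Fosb without shSLY 3, shSLX1 1 or shSLX1 2 (0.82 to 1.53), Zfp36l1 without shSLY 1, shSLY 2, shSLX1 1 or shSLX1 2 (0.54 to 1.05), and Cebpb without shSLY 1, shSLY 3, shSLX1 1, shSLX1 2, WT 1, WT 4, shSLX1shSLY 1 or shSLX1shSLY 3 (0.74 to 1.15). Per1, a circadian clock gene, stood at 10.67, 10.81 and 9.35 in shSLY, against 8.43, 8.18 and 9.10 in shSLX1 spermatids, with WT at 10.42 and 10.53 on WT 1 and 2 and 8.87 and 9.01 on WT 3 and 4. Its difference of 1.70 was 0.25 in the arrays numbered 3 and was not called with the array set as a block or without shSLY 1, shSLY 2, shSLX1 1 or shSLX1 2 (1.44 to 2.17). Pex5, the peroxisomal import receptor gene, was 1.77 higher at its brightest probe, while its kept probes ranged from -0.02 to 1.77.

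The largest differences with shSLY below shSLX1 were of autosomal genes. Lower here means relative to shSLX1 and not relative to WT. Fndc3a, on chromosome 14, whose loss in mice is known to disrupt the contact of spermatids with Sertoli cells, stood at 5.51, 5.61 and 5.66 in shSLY, against 9.25, 9.24 and 9.27 in shSLX1 and 7.69 to 7.97 in WT spermatids. The groups were far apart with WT between them, and the difference was -3.66 (SE 0.17, adjusted p = 1.34e-08), with -3.61 in the arrays numbered 3. A second kept Fndc3a probe gave -0.01, so the difference was measured by 1 probe only. Rnf170, a ubiquitin ligase gene on chromosome 8, showed the same order, at 7.39, 7.63 and 7.64 in shSLY, against 9.64, 9.50 and 9.69 in shSLX1 and 8.59 to 8.74 in WT spermatids. It was 2.05 lower in shSLY than in shSLX1 spermatids (SE 0.14, adjusted p = 7.90e-07), and its kept probes ranged from -2.05 to -0.24. Strn, which encodes the scaffold protein striatin, stood at 4.86, 4.83 and 5.11 in shSLY, against 7.57, 7.66 and 7.76 in shSLX1 and 5.49 to 5.86 in WT spermatids, so that the shSLX1 arrays were the ones far from WT (-2.73, SE 0.22, adjusted p = 4.87e-06), and it was detected on 2 of the 3 shSLY arrays. Ckmt2, a mitochondrial creatine kinase gene known from muscle, stood at 6.26, 6.66 and 6.21 in shSLY, against 9.98, 9.61 and 9.94 in shSLX1 spermatids. The WT arrays split with the array sets, at 7.08 and 7.17 on WT 1 and 2 and at 9.68 and 9.52 on WT 3 and 4. The Ckmt2 difference of -3.47 (adjusted p = 0.00545) was -3.74 in the arrays numbered 3, and -2.30 and not called when blocked by set. Guca2a, which encodes the peptide guanylin, was lower in shSLY than in shSLX1 spermatids by 2.27, the tropomodulin gene Tmod4 by 2.25, the beta-defensin gene Defb21 by 2.13, the aldehyde oxidase gene Aox4 by 2.04 and Thbs2, a thrombospondin gene, by 1.96. Aox4 was detected on 2 of the 3 shSLY arrays and Thbs2 on 1. Capn13, a calpain gene, was undetected on all 3 shSLY arrays and was at least 3.74-fold lower there (adjusted p = 3.05e-05). Gulo, which encodes the last enzyme of vitamin C synthesis, stood at 5.76, 5.85 and 5.51 in shSLY, against 6.71, 7.43 and 7.58 in shSLX1 and 4.88 to 5.24 in WT spermatids, a difference of -1.53 (SE 0.22, adjusted p = 0.000457). Every shSLY array thus lay above every WT array for Gulo. Among these genes, no call was lost when 1 array was left out.

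Chil3 and Chil4, neighbouring chitinase-like genes on chromosome 3 that are known from macrophages and neutrophils, were lower in shSLY too. Chil4 stood at 4.87, 4.91 and 4.57 in shSLY, against 8.21, 8.24 and 8.28 in shSLX1 and 5.57 to 5.78 in WT spermatids (-3.46, SE 0.16, adjusted p = 1.34e-08). Chil3 stood at 4.97, 4.86 and 5.55 in shSLY, against 7.91, 8.13 and 9.47 in shSLX1 and 5.53 to 5.98 in WT spermatids (-3.38, SE 0.33, adjusted p = 3.05e-05). The shSLX1 arrays were the high ones, and every shSLY array lay below every WT array except shSLY 3 for Chil3. Chil4 was detected on 2 of the 3 shSLY arrays. In the arrays numbered 3, Chil3 differed by -3.92, and Chil4, undetected on shSLY 3, was at least 10.5-fold lower there. Stfa1, a stefin gene encoding a cathepsin inhibitor, stood at 5.43, 5.38 and 6.04 in shSLY, against 7.84, 8.25 and 7.98 in shSLX1 and 4.94 to 5.42 in WT spermatids (-2.41, SE 0.19, adjusted p = 4.57e-06). Pira2 and Lilra6, immunoglobulin-like receptor genes of leukocytes, were lower by similar amounts (-1.93 and -1.95). Chil3 and Stfa1 are on the list of neutrophil markers, and they were the 2 called of its 4 tested members, the others being Mpo (0.23) and Lcn2 (-0.22). These 4 summed to linear intensities of 239 to 268 in shSLY, against 660 to 1098 in shSLX1 and 191 to 223 in WT spermatids. The defining neutrophil markers S100a8, S100a9, Ngp, Camp, Ltf and Elane did not pass the detection filter. The Chil promoters are shown because the genes moved together and share much sequence, so their probes may not be independent. They come from RefSeq on GRCm38.p6, minus strand, at chr3:106219430-106219729 for Chil4 and chr3:106167515-106167814 for Chil3, and capitals mark the longest run that both share.
Chil4: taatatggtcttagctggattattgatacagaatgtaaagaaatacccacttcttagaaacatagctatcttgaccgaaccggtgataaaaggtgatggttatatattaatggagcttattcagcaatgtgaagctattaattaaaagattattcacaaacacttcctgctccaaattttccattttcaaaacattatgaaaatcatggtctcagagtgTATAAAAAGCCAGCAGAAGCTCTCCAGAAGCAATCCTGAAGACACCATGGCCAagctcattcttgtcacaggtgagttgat
Chil3: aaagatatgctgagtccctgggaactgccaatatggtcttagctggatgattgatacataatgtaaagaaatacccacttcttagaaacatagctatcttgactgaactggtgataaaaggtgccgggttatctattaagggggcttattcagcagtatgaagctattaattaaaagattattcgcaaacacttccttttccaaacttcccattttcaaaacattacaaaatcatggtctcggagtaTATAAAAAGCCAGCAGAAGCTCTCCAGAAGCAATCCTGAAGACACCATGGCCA
The shared run has 53 letters and opens with TATAAA, the core of a TATA box. Searched on both strands, TATAAA was in 893 of 9044 promoters of tested genes (9.87%), and in 35 of 308 promoters of genes called lower (11.4%) and 29 of 277 of genes called higher (10.5%), shares near that of all genes.

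Lists of genes for other spermatid functions held few or no calls. Over all genes tested 6.81% were called, a share at which lists this short would also hold few. Of 19 acrosome genes, 23 genes of late spermatids and nuclear condensation, 13 of testis-specific glycolysis, 20 heat shock and chaperone genes, 16 of apoptosis and 9 heterochromatin writers and readers, 0 were called by limma, with list medians between -0.08 and 0.04. At an unadjusted p under 0.05 the counts higher and lower were 3 and 1 for the acrosome, 1 and 1 for late spermatids, 0 and 0 for glycolysis, 0 and 1 for heat shock, 3 and 3 for apoptosis and 3 and 0 for heterochromatin. The heterochromatin gene Dot1l (0.66) was called higher with the authors' values and with no background correction (0.62 in both), but not when blocked by array set. Cbx5 was called lower without shSLX1 3 (-0.61). For the ubiquitin list 1 of 34 was called higher and 3 lower, with a median of 0.00. The 3 lower ones were Rnf170, Btrc, which encodes the substrate receptor beta-TrCP (-1.12), and the conjugating enzyme gene Ube2g2 (-0.92), and the higher one was Wsb2 (1.05). Of 25 genes of head shaping, the manchette and Sertoli adhesion, Fndc3a was called lower and Espn, which encodes the actin-bundling protein espin, higher (1.12), while the kept Espn probes ranged from -0.19 to 1.12. Esrrb, a nuclear receptor gene, was the 1 of 18 postmeiotic regulators called, at -0.91. Of 10 Kallikrein 1 protease genes 2 were lower, Klk1b27 (-1.5) and Klk1b21 (-0.95), and the list median was -0.29. These genes are close paralogs whose probes may share targets. The extracellular matrix list had 1 of 16 higher and 2 lower, the cytoskeleton list 2 of 20 higher and 2 lower, and the lipid and sterol list 0 of 23 higher and 2 lower. In the plot of list members, the medians of the X, Y and Cypt lists lie to the right of 0. Of the lists in this paragraph, it shows the acrosome, late spermatid, head shaping, ubiquitin and Kallikrein lists only. Medians were 0.03 for the acrosome, -0.08 for late spermatids, -0.03 for head shaping and 0.00 for ubiquitin. In the Kallikrein list 3 of 10 genes lay above 0.

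**Figure D5:**
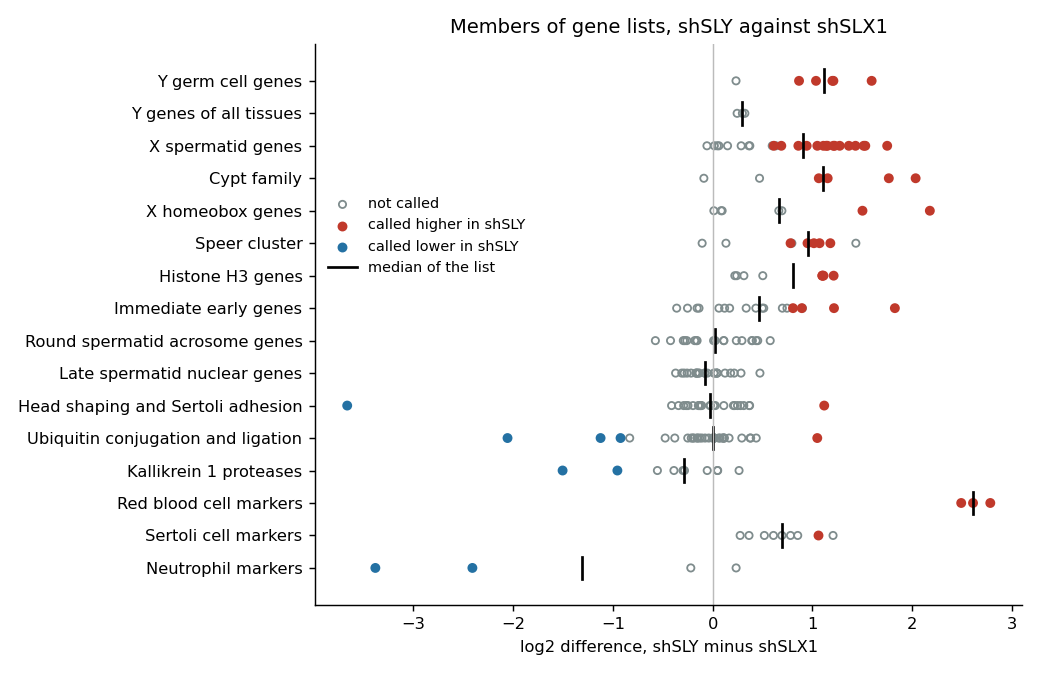
Log2 difference, shSLY minus shSLX1, of each tested member of the gene lists, 1 point per gene, with the list median. The Cypt, X spermatid and Y germ cell lists have medians of 1.11, 0.90 and 1.12, while the acrosome and late spermatid lists have 0.03 and -0.08.

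Of 12 round spermatid markers 0 were called by limma (1 higher and 1 lower at an unadjusted p under 0.05), with a median of 0.00 after rounding, and their summed linear intensity was 114340 to 120406 in shSLY, against 117981 to 129530 in shSLX1 spermatids. Spermatocyte markers (11 tested), elongating spermatid markers (5) and spermatogonium markers (8) also had 0 calls, with 0, 0 and 1 at an unadjusted p under 0.05. With 6.81% of all genes called, lists this short would hold few calls in any case. The summed elongating spermatid markers did not overlap, at 58687 to 63184 in shSLY, against 64708 to 67166 in shSLX1 spermatids. The spermatogonium marker Sohlh1 was called lower when blocked by array set (-0.78, adjusted p = 0.00787). Markers of other cells differed. All 3 red blood cell markers were called higher, and Hba-a1, an alpha globin gene, stood at 9.47, 10.17 and 7.71 in shSLY, against 6.85, 6.04 and 6.11 in shSLX1 spermatids, and at 7.42, 9.39, 6.19 and 5.65 in WT spermatids. Its difference of 2.78 (adjusted p = 0.0334) was 1.60 in the arrays numbered 3 and was not called with the array set as a block, nor without shSLY 1, shSLY 2, shSLX1 1, shSLX1 2 or shSLX1 3 (2.26 to 3.48). The summed red blood cell markers were 771 to 3310 in shSLY, against 216 to 398 in shSLX1 and 155 to 2092 in WT spermatids. Of 9 Sertoli cell markers all 9 lay above 0 and the median was 0.69, against 0.00 over all genes. The 1 called was Cldn11, a claudin gene (1.06), whose call was lost without shSLY 1, shSLY 2, shSLX1 1, shSLX1 2 or shSLX1shSLY 3 (0.83 to 1.18). That call was also lost with median scaling, with no filter and when blocked by array set. With the array set as a block, 0 Sertoli cell markers were called and the list median was 0.45. In the arrays numbered 3 the list median was 0.57. Blocked by replicate number, the Sertoli markers Cst12 (0.85) and Aard (0.78) were called besides Cldn11. The summed Sertoli cell markers were 1615 to 2543 in shSLY, against 1055 to 1145 in shSLX1 spermatids. The WT sums split with the array sets, at 2368 and 1938 on WT 1 and 2 and at 1073 and 1333 on WT 3 and 4. These sums did not overlap between the knockdowns, and the part of these cells in the autosomal differences was not tested. Macrophage and Leydig cell markers had 0 of 10 and 0 of 5 called, with medians of 0.28 and 0.22 and with 2 each at an unadjusted p under 0.05. The Leydig marker sums did not overlap between the knockdowns, at 934 to 1204 in shSLY, against 699 to 790 in shSLX1 and 873 to 1032 in WT spermatids. Insl3, a peptide hormone gene of Leydig cells, differed by 1.23 (adjusted p = 0.0645) and was called when blocked by array set (1.20, adjusted p = 0.0230) or by replicate number. The macrophage marker Laptm5 (1.57) was called when blocked by replicate number.

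The largest difference of all was at a probe with no gene name, ILMN_2476405. It stood at 12.28, 11.82 and 9.94 in shSLY spermatids, while it was undetected on every shSLX1 array (4.79, 4.77 and 4.67) and every WT array (4.57 to 4.85). The probe was at least 85.0-fold higher in shSLY than in shSLX1 spermatids (adjusted p = 2.92e-07), and it followed the label shSLY on all 6 arrays. The bound was 33.3-fold in the arrays numbered 3 and 139-fold without shSLY 3, the lowest shSLY array. Of the 998 genes called, 168 higher and 93 lower ones had no gene name, and the remaining 737 were named.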

How the data were processed

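RNA of purified round spermatids was hybridised to 13 Illumina BeadChip arrays, 1 per preparation. The authors deposited raw bead signal intensities with no background subtraction, and a detection p-value per probe and array; these were used. The authors' normalized signal intensities, whose column medians were 77.4, served as an alternative only. The submitters' notes name GenomeStudio 2011.1, and its settings were not given in the sources used here.

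Intensities were processed with neqc (offset 16, negative control level from the detection p-values, quantile normalization, log2) in limma 3.58.1 under R 4.3.3. A single gene name was listed for 34885 of the 45281 probes, several for 18 and no name for 10378; 34818 were matched to current symbols. A gene was represented by its kept probe with the highest mean, and the deposited arrays limit precision through their number. One mean per group was fitted over all 13 arrays, and p-values were adjusted by Benjamini-Hochberg. The fit was tested on simulated data. Exact permutation tests were two-sided.

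Named genes were a panel of the targeted genes, the genes measured by PCR and the Speer genes, the 15 highest and 15 lowest called differences without overlap among genes with a usual name (no Gm, Rik, LOC or clone name), and up to 4 members per list with the smallest adjusted p. Members and lists were chosen with earlier results of these data known.

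Deviations of same-numbered shSLY and shSLX1 arrays from their group means correlated at 0.175, 0.270 and 0.459 over genes, and the pairing of numbers comes from these values alone. Of the other pairs, shSLY 1 with shSLX1 2 reached 0.297 and shSLY 2 with shSLX1 1 reached 0.216, so the values set the arrays numbered 3 apart but do not tell number 1 from 2. Array sets were formed from the probes undetected on every array. Alternatives changed the background correction, scaling, filter, arrays, block, weights and probe choice.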

Additional observations from a re-analysis of the deposited data

Results flagged for a closer look

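The WT arrays of Rhox11 held 1 array apart from the others: WT 4 stood at 7.36, against 7.24 to 7.26 on WT 1 to 3. Of 48 groups of WT arrays examined, this was the 1 with an array apart, and chance alone sets an array apart in about 1 group in 20. The distance is small beside the 2.18 between shSLY and shSLX1 spermatids.

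The unnamed probe ILMN_2476405 was also bright on the shSLX1shSLY arrays, which the comparison does not use. Their mean was 9.96, at 9.88, 10.12 and 9.89, against 4.57 to 4.85 on the WT arrays, where the probe was undetected. The shSLY array of the same set, shSLY 3, stood at 9.94.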

How the results depend on the processing

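The direction of the X and Y differences was the same under all alternatives run, at 0.31 (no filter) to 0.99 (genes above the median intensity) for the X and 0.67 to 1.08 for the Y. Leaving out 1 array gave 0.53 to 0.63 for the X and 0.87 to 1.07 for the Y. Of the 73 called among the 157 named genes 0 reversed, and 57 kept the call with median scaling and 58 when blocked by array set, while 25 of the 84 not called passed under at least 1 alternative. The count of 998 called genes was 608 with no background correction, 594 with median scaling, 603 with the authors' values, 473 with the 6 arrays alone, 1982 with array quality weights and 1706 with both arrays numbered 3 left out, and leaving out 1 array gave 608 to 1552. The cause of these moves was not tested. With both arrays numbered 3 left out, 515 autosomal genes were called higher and 621 lower. The following was added after seeing the data: the array set that holds the arrays numbered 3 was fitted alone, with 1 array for each knockdown assumed to vary like the shSLX1shSLY arrays. It called 4 genes, 0 on the X and 0 on the Y, 2 autosomal genes higher and 1 lower, against 1536 at an unadjusted p under 0.05. With the replicate number as a block, on the 6 shSLY and shSLX1 arrays alone, 956 genes were called. The exact p of the X and Y differences, from exchanging labels within pairs, was then 0.25, the smallest that 3 pairs can give. Flna and Vwf lost their calls, and Speer1, Speer4d, Cst12, Aard, Insl3 and Laptm5 gained one. No other named call changed. The share with the same direction in the arrays numbered 3 was 55.7% with median scaling (46.4% of all genes), 85.8% with no filter (54.8%) and 77.4% with a detection p under 0.01 on all arrays (60.8%), so under median scaling these shares were lower for all genes as well. With 3 arrays on each side and most knockdown arrays in different sets, dim probes and autosomal differences are the least certain values.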

Other observations

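Matrix, contractile and lipid genes gave single calls in both directions. In the extracellular matrix list, Lum, which encodes the proteoglycan lumican, was lower in shSLY (-1.01), as was the basement membrane collagen gene Col4a2 (-0.90), and Timp2, an inhibitor of matrix metalloproteinases, was higher (1.35), a call lost without shSLY 1, shSLY 3, shSLX1 1 or shSLX1 2 (0.98 to 1.62) and when blocked by array set. The list median was 0.14. In the cytoskeleton list, the smooth muscle myosin gene Myh11 was lower (-1.15), detected on 1 shSLY array and all 3 shSLX1 arrays, and the alpha-actinin gene Actn4 was lower too (-0.87), a call lost without shSLX1 2 (range over single arrays -0.99 to -0.74). The intermediate filament gene Vim was undetected on every shSLX1 array and at least 1.19-fold higher in shSLY (adjusted p = 0.0188), a call lost without shSLY 2, shSLX1 1 or shSLX1 2, where the fitted difference ran from 0.65 to 0.82. The filamin gene Flna, on the X, was called (0.62), but lost the call when any 1 array other than shSLY 3 was left out (0.49 to 0.85). In the lipid list, Gulo and the sterol pathway gene Fdps were the 2 called lower. Fdps (-0.90) had a second kept probe at 0.15 and lost the call without any 1 of the shSLY 1, shSLY 2, shSLX1 or shSLX1shSLY arrays (-1.14 to -0.77).

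The list of SLX and SLY protein partners had 2 of 8 called higher, Ssty1 and Ssty2, which are also the 2 tested members of the spindlin list, and its other members, among them the acrosomal genes Acrv1 (0.11) and Dkkl1 (0.11), were not called. Of the 4 tested relatives of Sly and Slx in the Sycp3/Xlr family, Sly was the 1 called. Among 7 epididymis markers, the sperm-coating inhibitor gene Eppin was higher (0.97) and Defb21 lower (-2.13), with a list median of -0.07. Endothelial and myoid markers had 1 of 4 and 1 of 5 called, Vwf (-0.67) and Myh11. The Vwf call was lost without shSLY 1, shSLY 2, shSLY 3 or shSLX1 2 (-0.82 to -0.49).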
